A study of Mus musculus with 10 samples.

Results

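The Nodal and Activin pathway was described here through 9 genes, namely the ligand Nodal, its co-receptor Tdgf1, the receptors Acvr1b and Acvr2b, the signal transducers Smad2 and Smad3, and the inhibitors Lefty1, Lefty2 and Smad7. These were looked up by gene symbol among the 30677 genes of the RNA-seq count table, and all 9 were listed and passed the filter on low counts, as did 20027 genes in all. The cells were TNGA mouse embryonic stem (ES) cells, a single line in which one Nanog allele carries a green fluorescent protein reporter. All cultures were kept in serum with leukemia inhibitory factor (LIF) for the 48 hours of treatment and contained 0.1% dimethyl sulfoxide (DMSO). The comparison was between DMSO alone, the vehicle, and 100 μM MB-3, a small molecule that inhibits the histone acetyltransferase Kat2a (Gcn5), with 3 cultures of each that carry the replicate letters A, B and C. Acetylation of histone H3 at lysine 9 (H3K9ac), a mark that Kat2a deposits near active start sites, was also mapped in each treatment.

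Nodal and Activin are secreted factors of the transforming growth factor β family. They bind a type II receptor such as Acvr2b, which activates the type I receptor Acvr1b (Alk4), and Nodal also needs a co-receptor such as Tdgf1 (Cripto). The active receptor phosphorylates Smad2 and Smad3, which enter the nucleus with Smad4, bind DNA with partners such as Foxh1, and switch on targets that include Nodal itself, Lefty1 and Lefty2. Lefty1 and Lefty2 are secreted antagonists of Nodal, so that the pathway limits itself, while Smad7 acts inside the cell against the receptors. In mouse ES cells the pathway is active at a basal level, and in the embryo it patterns the primitive streak and the left side of the body.

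Levels are given as counts per 1000000 (CPM) of the normalised library size. Lefty1 and Lefty2 were the members with the largest differences. Their fitted levels in MB-3 differed from those in DMSO by -21.5% for Lefty1 and -21.8% for Lefty2, whereas fitted differences in the other 7 members lay between -0.16 and 0.17 on the log2 scale. With treatment as the only term of the edgeR quasi-likelihood fit, 0 of the 9 members had a Benjamini-Hochberg adjusted p under 0.05, where 0.205% of all genes tested did. At an unadjusted p under 0.05 the fit had 2 members, Lefty1 and Lefty2, where 10.9% of all genes had such a p. With the replicate letter added to the fit as a block, Lefty1 and Lefty2 both passed the adjusted threshold and were lower in MB-3, where 7.12% of all genes passed, 3.90% lower and 3.22% higher. At an unadjusted p under 0.05 the blocked edgeR fit had 5 members, Nodal, Acvr1b and Acvr2b besides these, and 4016 of the 20027 genes tested. The median log2 fold change was -0.11 over the 9 members and -0.0011 over all genes tested, with 6 members below 0 and 3 above. Both fits are given for each member. Nothing in the labels says that the triplicates came from separate days or passages, so the p-values measure the spread between these cultures, which may be technical. RNA from whole cultures cannot tell fewer cells with a transcript apart from less transcript per cell.

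**Figure D1:**
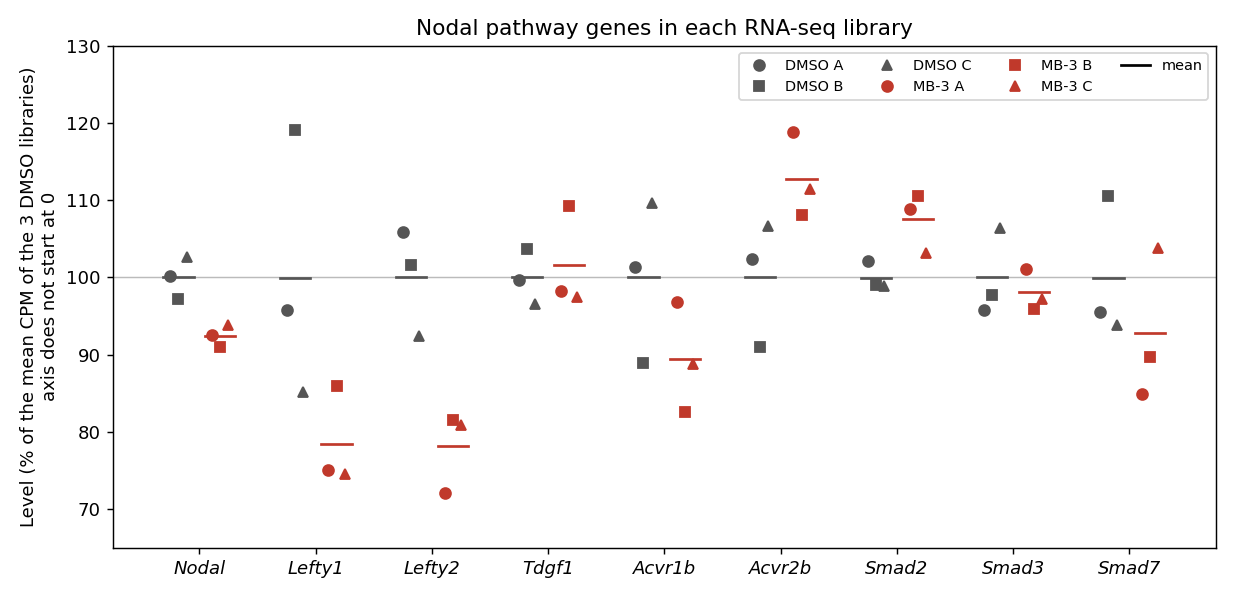
Level of each member in each library as a percentage of the mean CPM of the 3 DMSO libraries, with a horizontal line at each group mean, grey for DMSO and red for MB-3, and 1 symbol per replicate letter; the axis does not start at 0. All MB-3 libraries of Lefty2 and Nodal lie below all DMSO libraries, whereas MB-3 B of Lefty1 lies just above DMSO C.

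Nodal (ENSMUSG00000037171, chr10:61417972-61425338, plus strand, GRCm38) had 59.6, 57.8 and 61.1 CPM in DMSO A, B and C, and 55.1, 54.1 and 55.8 CPM in MB-3 A, B and C. All 3 MB-3 libraries were below all 3 DMSO libraries, and the libraries of each group lay close together. The DMSO mean was 59.5 ± 1.63 and the MB-3 mean 55.0 ± 0.87 CPM (SD, n = 3 each). The log2 fold change was -0.11, with a 95% interval of -0.23 to 0.0081 and a standard error of 0.056 without the block. With the block the 95% interval was -0.21 to -0.012 (unadjusted p 0.030 in edgeR). Nodal did not pass the adjusted threshold in edgeR, with an adjusted p of 0.487 without the block and 0.187 with it. The 250 bases before the annotated start of Nodal (chr10:61417722-61417971, plus strand, RefSeq on GRCm38.p6) are shown because the gene is both the ligand and a target of the pathway.
Nodal: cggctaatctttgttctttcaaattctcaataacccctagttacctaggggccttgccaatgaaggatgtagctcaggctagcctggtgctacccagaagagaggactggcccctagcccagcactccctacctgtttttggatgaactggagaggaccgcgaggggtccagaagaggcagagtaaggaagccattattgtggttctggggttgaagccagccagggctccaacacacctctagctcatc
On either strand these bases held neither AATCCACA, the letters searched for Foxh1, nor CAGAC, the letters of the Smad box. Over the 32851 promoters of this length in the table, 0.718% held AATCCACA and 42.2% held CAGAC.

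Tdgf1 (ENSMUSG00000032494, chr9:110939603-110946158, minus strand), the membrane-anchored co-receptor of Nodal, had 650, 677 and 630 CPM in DMSO A, B and C, and 641, 712 and 636 CPM in MB-3 A, B and C. The groups overlapped, and library B was the highest of both treatments. Means were 652 ± 23.5 (SD, n = 3) and 663 ± 42.9 (SD, n = 3). The log2 fold change was 0.02 (standard error, SE, 0.064, 95% interval -0.11 to 0.16), with an adjusted p of 0.924 in edgeR and 0.833 with the block. Its sign turned when MB-3 B was left out, to -0.03, or DMSO C, to -0.0016. The 250 bases before its start (chr9:110946159-110946408, minus strand) are shown for contrast with Nodal, with the 1 match to CAGAC in capitals.
Tdgf1: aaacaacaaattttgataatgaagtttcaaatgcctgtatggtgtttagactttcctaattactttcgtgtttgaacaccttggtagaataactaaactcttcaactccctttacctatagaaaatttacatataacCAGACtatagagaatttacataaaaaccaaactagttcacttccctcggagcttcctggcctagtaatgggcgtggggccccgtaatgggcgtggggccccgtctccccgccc
That match starts 113 bases before the start site. Acvr2b also had 1 match, 233 bases before its start, and Acvr1b and Smad3 had 0, while AATCCACA was absent from all 5 members searched, which these and Nodal and Tdgf1 make up. These are matches of letters in a short window and say nothing about binding.

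Of the receptors, Acvr1b (ENSMUSG00000000532, chr15:101174067-101213684, plus strand), the type I receptor shared by Nodal and Activin, had 45.9, 40.3 and 49.7 CPM in DMSO A, B and C and 43.9, 37.4 and 40.2 CPM in MB-3 A, B and C. The groups overlapped, but within each letter the MB-3 library was the lower. The log2 fold change was -0.16 (SE 0.083, 95% interval -0.34 to 0.019), with an adjusted p of 0.511 in edgeR and 0.0767 with the block. With the block its 95% interval was -0.27 to -0.047 (unadjusted p 0.0070 in edgeR). Without DMSO C the unblocked log2 fold change was -0.089. Acvr2b (ENSMUSG00000061393, chr9:119402118-119434995, plus strand), a type II receptor, had 9.01, 8.02 and 9.40 CPM in DMSO A, B and C and 10.5, 9.52 and 9.82 CPM in MB-3 A, B and C. All MB-3 libraries were above all DMSO libraries, though MB-3 B only just above DMSO C. Its log2 fold change was 0.17 (SE 0.094, 95% interval -0.028 to 0.38), with an adjusted p of 0.524 in edgeR and 0.237 with the block. With the block its 95% interval was 0.0035 to 0.35 (unadjusted p 0.046 in edgeR). Without DMSO B the unblocked log2 fold change was 0.11. Neither receptor passed the adjusted threshold in either fit.

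The secreted antagonists Lefty1 and Lefty2 are close paralogs that lie near each other on chromosome 1. Their coding sequences are 1104 bases each and 91.85% identical, with 6 identical runs of at least 50 bases. The longest identical run is 140 bases. Of the words of 50 bases in the annotated transcripts, 17.9% of those of Lefty1 and 12% of those of Lefty2 also occur in another gene, mostly in each other. For Tdgf1 this share was 8.86%, all with the pseudogene Tdgf1-ps1, and for the other 6 members it was 0. How reads that fit several genes were counted is not given in the sources used here, so the split of reads between Lefty1 and Lefty2 is uncertain, and so to a lesser extent is the level of Tdgf1.

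Lefty1 (ENSMUSG00000038793, chr1:180935022-180938400) had 85.4, 106 and 76.0 CPM in DMSO A, B and C and 67.0, 76.7 and 66.5 CPM in MB-3 A, B and C. DMSO B stood above the other DMSO libraries, MB-3 B above the other MB-3 libraries, and MB-3 B was just above DMSO C, so the groups overlapped. Within each letter the MB-3 library was the lower, with log2 ratios of -0.35, -0.47 and -0.19 for A, B and C. The DMSO mean was 89.2 ± 15.5 and the MB-3 mean 70.0 ± 5.74 CPM (SD, n = 3 each), for a log2 fold change of -0.35 (SE 0.10, 95% interval -0.57 to -0.13). In edgeR this had an unadjusted p of 0.00439 and an adjusted p of 0.227. With the block, the log2 fold change was -0.34, the standard error 0.051 and the adjusted p 2.7e-05. Without DMSO B, the highest library, the log2 fold change without the block was -0.20.

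Lefty2 (ENSMUSG00000066652, chr1:180893108-180899103) had 84.2, 80.7 and 73.5 CPM in DMSO A, B and C and 57.3, 64.8 and 64.3 CPM in MB-3 A, B and C. Every MB-3 library was below every DMSO library. Within letters the log2 ratio of MB-3 to DMSO was -0.55 for A, -0.32 for B and -0.19 for C. The DMSO mean was 79.5 ± 5.47 and the MB-3 mean 62.2 ± 4.18 CPM (SD, n = 3 each), for a log2 fold change of -0.36 (SE 0.069, 95% interval -0.50 to -0.21). The adjusted p in edgeR was 0.0611, just outside the threshold, and it was 3.8e-05 with the block. DESeq2 without the block gave an adjusted p of 6.6e-04 for Lefty2 and 0.045 for Lefty1.

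Counts of both genes added together do not depend on how shared reads were split, provided that none was dropped or counted for both genes. Whether that holds is not given in the sources used here. The sum was 170, 187 and 149 CPM in DMSO A, B and C and 124, 141 and 131 CPM in MB-3 A, B and C, with no overlap between the groups. Its log2 fold change was -0.35 (SE 0.078, 95% interval -0.52 to -0.18), with an adjusted p of 0.0997 in edgeR and 6.1e-06 with the block. The log2 ratio of Lefty1 to Lefty2 differed by 0.02 between treatments (p = 0.8, two-sided exact permutation test over libraries). Relative to Nodal, the log2 ratio of Lefty2 averaged 0.42 ± 0.13 in DMSO cultures and 0.17 ± 0.10 in MB-3 cultures (SD, n = 3 each), a difference of -0.24 with p = 0.1 in the exact permutation test, the smallest it can give. That of Lefty1 to Nodal was 0.57 ± 0.29 and 0.35 ± 0.14 (SD, n = 3 each), a difference of -0.23 with p = 0.2 in the same exact permutation test. This test leaves the letters out. Within each letter the ratio of Lefty1 to Nodal was lower in MB-3, with 0.28 against 0.52 for A, 0.50 against 0.88 for B and 0.25 against 0.31 for C. A total of 6 such ratios were computed.

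Among the transducers, Smad2 (ENSMUSG00000024563, chr18:76241580-76310963, plus strand) had 36.5, 35.3 and 35.3 CPM in DMSO A, B and C and 38.9, 39.5 and 36.8 CPM in MB-3 A, B and C. The MB-3 libraries were all above the DMSO libraries, with a log2 fold change of 0.10 (SE 0.061, 95% interval -0.026 to 0.24) and an adjusted p of 0.560 in edgeR, 0.275 with the block. Smad3 (ENSMUSG00000032402, chr9:63646767-63757994, minus strand), the paralog that binds DNA directly, had 13.7, 13.9 and 15.2 CPM in DMSO A, B and C and 14.4, 13.7 and 13.9 CPM in MB-3 A, B and C. These overlapped, with a log2 fold change of -0.03 (SE 0.078, 95% interval -0.19 to 0.14) and an adjusted p of 0.929 in edgeR, 0.890 with the block. Without DMSO C the sign of Smad3 turned, to 0.02. The log2 ratio of Smad2 to Smad3 counts had a DMSO mean of 1.33 ± 0.10 and an MB-3 mean of 1.46 ± 0.063 (SD, n = 3 each), a difference of 0.13 with p = 0.2 in a two-sided exact permutation test over libraries, where 0.1 is the smallest p that 3 libraries against 3 can give. The test leaves the letters out. Within each letter this ratio was higher in MB-3, with 1.43 against 1.42 for A, 1.53 against 1.34 for B and 1.41 against 1.22 for C. Across all 9 members, 4 had groups that did not overlap, with Nodal and Lefty2 lower in MB-3 and Acvr2b and Smad2 higher. Over all genes tested, 15.6% had groups that did not overlap, 7.37% with MB-3 lower and 8.22% with MB-3 higher.

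Smad7 (ENSMUSG00000025880, chr18:75367529-75395935, plus strand), the inhibitory Smad that is itself a target of the pathway, had 19.8, 22.9 and 19.4 CPM in DMSO A, B and C and 17.6, 18.6 and 21.5 CPM in MB-3 A, B and C. The groups overlapped, and the direction differed among letters, with MB-3 lower for A and B and higher for C. The log2 fold change was -0.11 (SE 0.092, 95% interval -0.31 to 0.089), with an adjusted p of 0.704 in edgeR and 0.419 with the block. The log2 fold change was -0.030 without DMSO B and -0.196 without MB-3 C. Without the block, the intervals of the 7 members that did not pass in either fit allow changes of up to 0.38 in size on the log2 scale. A p that misses the threshold does not show that the treatments were alike.

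**Figure D2:**
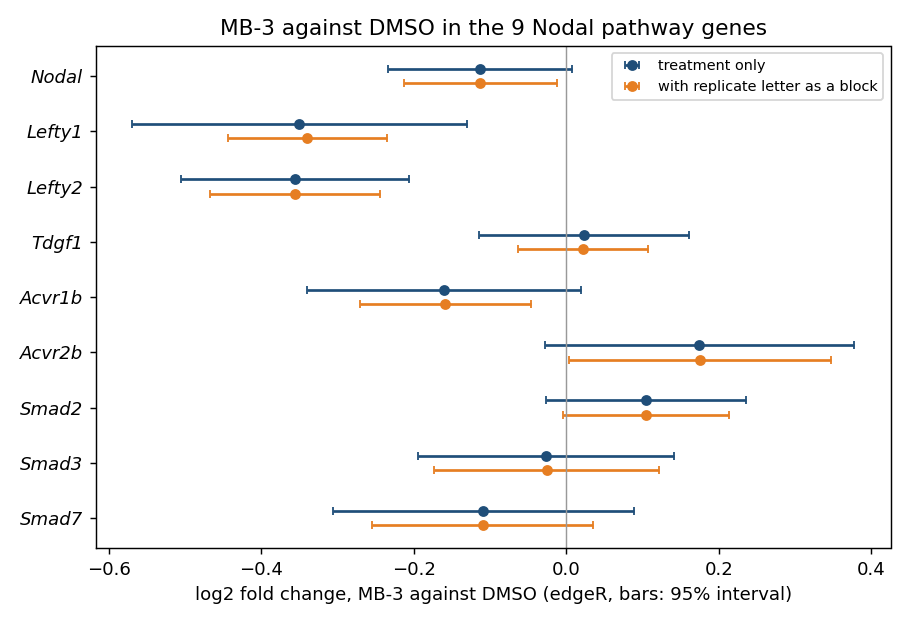
Fitted log2 fold change of MB-3 against DMSO for each member in edgeR, with treatment only (blue) and with letter as a blocking term (orange); bars are 95% intervals. The intervals of Lefty1 and Lefty2 lie below 0 in both fits, and the block narrows that of Lefty1 the most, its standard error going from 0.10 to 0.051. In the blocked fit alone, the intervals of Nodal and Acvr1b also lie below 0 and that of Acvr2b above it.

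Levels can be compared between genes only per length. Divided by the length of all annotated exons, Tdgf1 stood far above the rest with 249 ± 8.96 CPM per kb in DMSO (SD, n = 3). Lefty1 followed at 50.8 ± 8.84, then Lefty2 at 30.4 ± 2.1 and Nodal at 28.4 ± 0.78 CPM per kb, and these last neighbours were within their spread of each other in DMSO. Acvr1b had 10.2 ± 1.07 CPM per kb. Smad7 at 4.58 ± 0.42 and Smad2 at 4.07 ± 0.073 were neighbours with a gap like the spread of Smad7. Smad3 at 2.57 ± 0.15 and Acvr2b at 2.24 ± 0.18 were the lowest in DMSO. In MB-3 Nodal at 26.3 ± 0.41 CPM per kb stood above Lefty2 at 23.8 ± 1.60, the reverse of their order in DMSO. All exons of a gene counted towards its length, whether or not these cells use them. How reads shared by Lefty1 and Lefty2 were counted is not known, so the order of Lefty2 and Nodal is uncertain in both treatments.

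**Figure D3:**
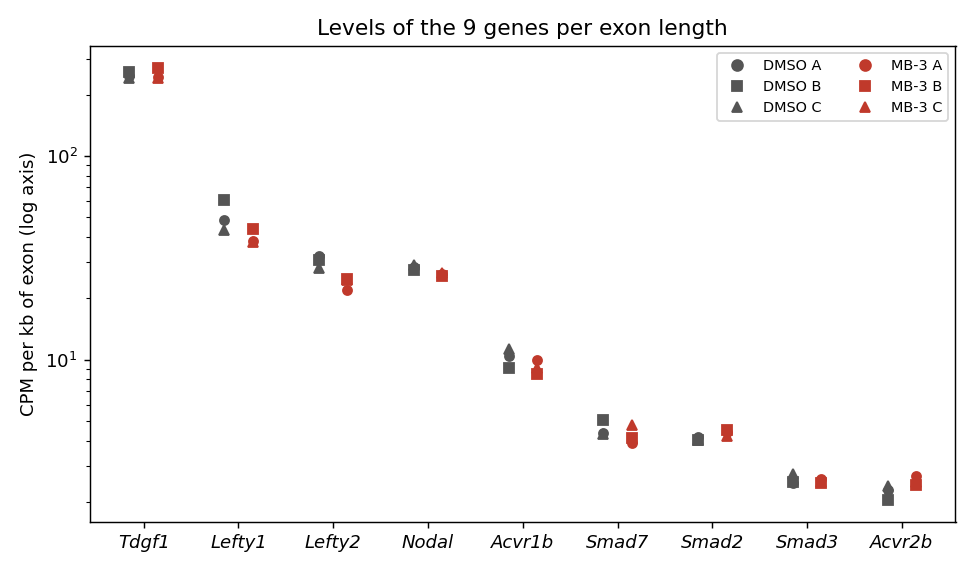
Level of each member in each library in CPM per kb of annotated exon, on a log axis, ordered by the DMSO mean, with grey symbols for DMSO and red symbols for MB-3. Tdgf1, at a DMSO mean of 249, is the highest and Acvr2b, at 2.24, the lowest, while Lefty2 and Nodal are neighbours that change places between DMSO and MB-3. Their order may depend on how reads shared by Lefty1 and Lefty2 were counted.

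Across the 6 libraries, the genes whose pattern was most like that of Lefty1 were Idh2, which encodes mitochondrial isocitrate dehydrogenase, with a Pearson r of 0.997, Gm6083 with 0.988 and Gm15921 with 0.987. They were taken from 10163 genes with a mean of at least 10 CPM. Among these, Lefty2 ranked 569 with r = 0.808, Smad7 1581 with r = 0.610, Tdgf1 2800 with r = 0.415 and Nodal 2981 with r = 0.382, while Acvr1b, Smad3 and Smad2 had negative values. The 6 points share treatment, letter and library, so that these values only describe this series.

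The pathway has further genes, and 49 were listed by role, of which 46 were in the count table and 42 passed the filter. Gdf1, Mstn and Acvr1c were not analysed here, and Inhba, Tgfb3, Cer1 and Foxa2 had too few counts to test. The log2 fold change was below 0 for 26 of the 42 and above for 16, with a median of -0.059. Only Lhx1 passed in edgeR without the block, beside the 0.205% of all genes. With the block 11 of the 42 passed, 8 lower and 3 higher in MB-3, beside 7.12% of all genes. Those that were lower include Eomes, Mixl1 and Lhx1, transcription factors that Nodal signals turn on.

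Of the target transcription factors, Eomes, Mixl1 and Lhx1 passed with the block, all lower in MB-3, and Gsc did not pass. Eomes, a T-box factor of the primitive streak, had 6.40, 4.51 and 10.1 CPM in DMSO A, B and C and 4.34, 3.55 and 5.13 CPM in MB-3 A, B and C. DMSO C was the highest and the groups overlapped, with adjusted p-values of 0.287 in edgeR and 2.4e-04 with the block. The unblocked log2 fold change of Eomes was -0.69 with all libraries and -0.33 without DMSO C. Without DMSO B it was -0.93, with an adjusted p of 0.0094 in edgeR. An antisense gene, Gm33460, overlaps Eomes.

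Mixl1, a homeobox factor of mesendoderm, had 1.60, 1.22 and 3.21 CPM in DMSO A, B and C and 0.442, 0.524 and 0.653 CPM in MB-3 A, B and C. The groups were well apart, with a log2 fold change of -1.90 (SE 0.35) and an adjusted p of 0.0507 in edgeR, 2.2e-06 with the block. Lhx1, a LIM homeobox factor of the node and anterior mesendoderm, had 0.956, 0.638 and 1.55 CPM in DMSO A, B and C and 0.161, 0.0911 and 0.163 CPM in MB-3 A, B and C, the lowest of which rested on 4 counts. Its log2 fold change was -2.89 (SE 0.42) with an adjusted p of 0.0243 in edgeR and 1.1e-06 with the block, but it did not pass without the block when DMSO A, DMSO C, MB-3 A or MB-3 B was left out (adjusted p up to 0.17). Gsc had 6 to 20 counts per library and did not pass, with a 95% interval of -1.22 to 0.77.

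**Figure D4:**
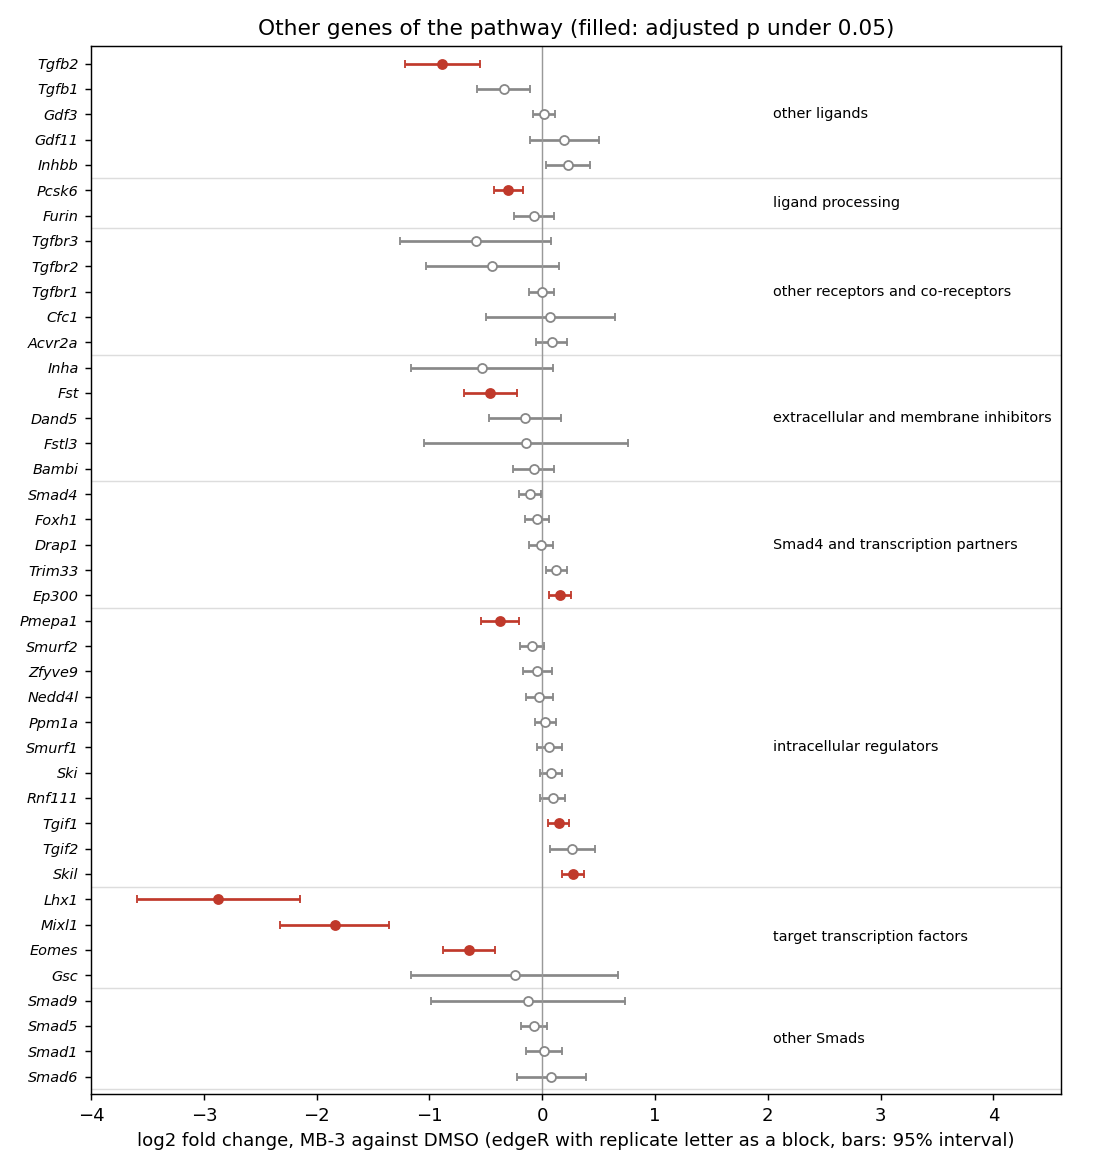
Log2 fold change of MB-3 against DMSO with 95% intervals for 41 of the 42 tested genes of the wider list, from edgeR with letter as a blocking term, grouped by role; filled red symbols have an adjusted p under 0.05. The 3 red symbols among the target transcription factors lie below 0, and Skil, Tgif1 and Ep300 are the 3 red symbols above 0.

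Among the intracellular regulators, 3 of 11 passed with the block, beside 7.12% of all genes. Skil (SnoN), a repressor of Smad target genes that the pathway also induces, had 108, 114 and 100 CPM in DMSO A, B and C and 135, 127 and 129 CPM in MB-3 A, B and C. All MB-3 libraries were above all DMSO libraries, with a log2 fold change of 0.27 (SE 0.060) and an adjusted p of 0.0979 in edgeR, 1.8e-04 with the block. Tgif1, another corepressor of Smads, had 203 ± 12.9 and 224 ± 7.85 CPM (SD, n = 3 each) in DMSO and MB-3, with an adjusted p of 0.402 in edgeR and 0.0447 with the block. It no longer passed with the block once letter A, B or C was left out, with adjusted p-values of 0.068, 0.067 and 0.413 in edgeR. Pmepa1, a target that restrains Smad2 and Smad3, had 10.9, 10.1 and 12.9 CPM in DMSO A, B and C and 8.0, 8.54 and 9.72 CPM in MB-3 A, B and C. All its MB-3 libraries were below all its DMSO libraries, and the adjusted p was 0.229 in edgeR and 0.0039 with the block. Ski had 95.6 and 101 CPM on average and Ppm1a 95.3 and 97.2 CPM in DMSO and MB-3, and neither passed.

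Of the partners of the Smads, Smad4, the common mediator, had 66.0 ± 3.36 and 61.3 ± 3.30 CPM in DMSO and MB-3 cultures (SD, n = 3 each), with a log2 fold change of -0.11 (95% interval -0.24 to 0.029). Foxh1, the forkhead partner that brings Smads to Nodal targets, had 46.2 ± 2.20 and 44.9 ± 3.46 CPM (SD, n = 3 each), with a 95% interval of -0.19 to 0.11. Neither passed in either fit. The coactivator and acetyltransferase Ep300 was at 135 ± 19.3 and 150 ± 10.6 CPM (SD, n = 3 each) and passed only with the block, where it was higher in MB-3 (adjusted p 0.571 in edgeR and 0.0338 with the block). That call was lost when letter B or C was left out of the blocked fit (adjusted p 0.339 and 0.075 in edgeR), and without DMSO B the unblocked log2 fold change of Ep300 was 0.050. Gm23880 overlaps it on the same strand. Trim33 had 99.8 and 109 CPM on average and did not pass.

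Of the other ligands, 1 of the 5 tested passed with the block, beside 7.12% of all genes. Tgfb2 had 3.28, 1.30 and 4.97 CPM in DMSO A, B and C and 1.81, 0.956 and 2.24 CPM in MB-3 A, B and C, with adjusted p-values of 0.394 in edgeR and 4.8e-04 with the block. The B libraries were the lowest of both treatments, and an antisense gene, Gm29491, overlaps this one. The unblocked log2 fold change of Tgfb2 was -0.93 with all libraries and -0.45 without DMSO C. Without DMSO B it was -1.31, with an adjusted p of 0.011 in edgeR. Gdf3, a ligand that also uses Tdgf1 and is abundant in ES cells, had 108 ± 10.5 and 109 ± 5.32 CPM (SD, n = 3 each), a log2 fold change of 0.01 with a 95% interval of -0.14 to 0.16. Inhbb, the Activin B subunit, had 6.09 and 7.14 CPM on average and did not pass. The proprotein convertase Pcsk6 (Pace4), which cleaves Nodal, had 23.3, 22.4 and 22.7 CPM in DMSO A, B and C and 18.1, 17.8 and 19.6 CPM in MB-3 A, B and C. The groups did not overlap, and the adjusted p was 0.118 in edgeR and 0.0019 with the block; Gm45213 overlaps it on the same strand. Furin, a related convertase, had 9.31 and 8.78 CPM on average and did not pass.

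The 5 other receptors and co-receptors tested gave 0 calls in either fit, with 0 at an unadjusted p under 0.05 without the block. Tgfbr1 had 37.4 ± 2.16 and 37.3 ± 3.28 CPM (SD, n = 3 each), and Acvr2a, which also serves Nodal and Activin, had 15.8 ± 0.55 and 16.8 ± 1.09 CPM (SD, n = 3 each). All 5 extracellular and membrane inhibitors tested had log2 fold changes below 0, as did 10073 of the 20027 genes tested, and 1 passed with the block, beside 7.12% of all genes. That was Fst (follistatin), which binds Activin, with 5.55, 4.79 and 9.31 CPM in DMSO A, B and C and 4.44, 4.19 and 5.32 CPM in MB-3 A, B and C. DMSO C was the highest and the groups overlapped, with adjusted p-values of 0.394 in edgeR and 0.0103 with the block, and the antisense gene Gm47040 overlaps it. The call was lost when letter C was left out of the blocked fit, where the log2 fold change of Fst was -0.26 with an adjusted p of 0.319 in edgeR, and without DMSO C the unblocked value was -0.15. Bambi had 9.64 and 9.13 CPM and Dand5 2.57 and 2.32 CPM on average. The 4 other Smads tested, which belong to the bone morphogenetic protein pathway, gave 0 calls in either fit. They also gave 0 at an unadjusted p under 0.05 without the block, with 34.7 and 33.0 CPM on average for Smad5.

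The libraries were checked for what cells they held. All 10 markers of naive and general pluripotency were present, with summed levels of 4667, 4832 and 4347 CPM in DMSO A, B and C and 4358, 4583 and 4452 CPM in MB-3 A, B and C. Dppa5a was the most abundant of these, and none was at 0 in any library. Without the block 1 of the 10, Tbx3, passed in edgeR and was lower, beside 0.105% of all genes. With the block 3 passed, where 7.12% of all genes did, Tbx3 and Tfcp2l1 lower and Utf1 higher. Markers of primitive streak and definitive endoderm summed to 30.5, 18.04 and 57.1 CPM in DMSO A, B and C and 11.7, 8.97 and 16.8 CPM in MB-3 A, B and C. Of these, 7 of 9 were tested, all 7 had log2 fold changes below 0 with a median of -1.68, 0 passed without the block and 6 were lower with it, where 3.90% of all genes were, namely T, Eomes, Mixl1, Wnt3, Fgf8 and Evx1. Marker genes were named here after their values were seen. T was the most abundant with a mean of 12.3 CPM, and Eomes, Mixl1, Gsc and Foxa2 are in this list as well as among the target transcription factors. Whether a smaller share of differentiating cells had a part in the lower Lefty1 and Lefty2 of MB-3 was not tested.

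Primed epiblast markers summed to 423, 438 and 440 CPM in DMSO A, B and C and 522, 526 and 536 CPM in MB-3 A, B and C. Dnmt3b was the most abundant and the 1 of 6 that passed in edgeR without the block, where it was higher, beside 0.0999% of all genes. With the block 4 of 6 passed, beside 7.12% of all genes, Dnmt3b and Otx2 higher and Fgf5 and Fgf8 lower, and most of each sum was Dnmt3b, with a DMSO mean of 346 and an MB-3 mean of 432 CPM. Simple epithelium markers summed to 240, 164 and 389 CPM in DMSO A, B and C and 143, 122 and 213 CPM in MB-3 A, B and C, with Krt18 the most abundant in DMSO and Cldn6 in MB-3. Of these 0 of 6 passed without the block and 4, Krt8, Krt18, Krt19 and Cldn6, were lower with it, beside 3.90% of all genes. Extraembryonic endoderm markers summed to 8.78 to 13.5 CPM per library, with Dab2 the most abundant and 0 of 7 passing in either fit. Fibroblast markers, for feeder cells, summed to 7.79, 6.36 and 8.58 CPM in DMSO A, B and C and 5.14, 5.44 and 5.34 CPM in MB-3 A, B and C, so that the groups did not overlap, with Thy1 the most abundant, Lum and Postn at 0 in at least 1 library, and 2 of 5, Col1a1 and Col1a2, lower with the block, beside 3.90% of all genes. The part of these cells in the results was not tested.

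H3K9ac peaks were deposited as positions on the older mm9 build, 1 list per treatment from merged duplicates, so that there is no replicate and no test. Over the whole lists there were 11724 DMSO peaks and 4673 MB-3 peaks, and 64.2% of those in the DMSO list had no counterpart in the MB-3 list, with 1 shared base enough to count. Gene names for peaks came from the first 1999 entries of the study's annotated list for each treatment, which cover chromosomes 1 and 10 in full for both. The peak named Nodal was at chr10:60881053-60881812 (mm9) in DMSO, 760 bp wide, and at chr10:60881246-60881632 in MB-3, 387 bp wide. The MB-3 peak lay wholly inside the DMSO peak and covered 50.9% of it. The median width over each whole list was 528 bp in DMSO and 416 bp in MB-3. Lefty2 had DMSO peaks at chr1:182818381-182818710, of 330 bp, and at chr1:182819217-182819836, of 620 bp, and neither overlapped an MB-3 peak. The same MB-3 peak was the nearest to both, 15869 and 14743 bp away. No peak in either list carried the name Lefty1, and the other members were not analysed here. Of the 3 DMSO peaks named for a member, 1 thus had an MB-3 peak. Read depth behind the lists is unknown here, and a peak below the caller's threshold in MB-3 is not shown to be absent.

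**Figure D5:**
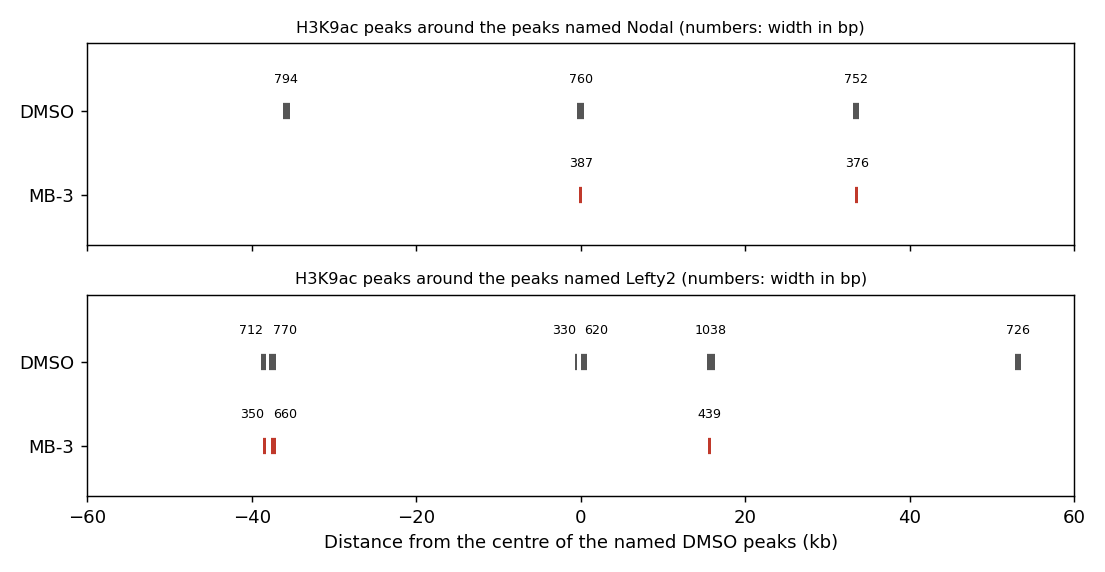
H3K9ac peaks of each treatment within 60 kb of the centre of the DMSO peaks named Nodal (top) and Lefty2 (bottom), drawn to scale by distance in kb, with the width of each peak in bp above it. Around Nodal there are 3 DMSO peaks and 2 MB-3 peaks, around Lefty2 6 and 3, and at the centre of the Lefty2 panel only the DMSO row has peaks. Lefty1 lies near Lefty2 on chromosome 1 and was not placed on mm9, so the Lefty2 window may also take in Lefty1.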

How the data were processed

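RNA-seq was done on triplicate cultures and ChIP-seq on duplicates. The values analysed for RNA are raw counts, which the authors deposited per Ensembl gene after aligning trimmed reads with Bowtie (mm10) and using GenomicAlignments to count those over exons. Versions, the use of strand and the treatment of reads that fit several genes are not given in the sources used here. For H3K9ac the authors used BWA (mm9), SAMtools to merge duplicates and MACS2, and deposited positions only, as chromosome, start and end without a score. The authors' own fold changes and p-values, from DESeq2, were not used.

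Symbols, positions and exon lengths came from GENCODE M21 (GRCm38, the assembly of mm10), which paired 30540 of 30677 identifiers. The DMSO libraries held 46863700 to 51137896 counts and the MB-3 libraries 42270312 to 49334434, so that 1 CPM stands for 42.9 to 50.2 reads. Over all genes tested, log2 fold changes had a median SE of 0.10. Libraries were grouped by their labels, and none looked like another deposited again, with a chi-square of 8.41 to 17.4 per gene between libraries of a group.

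Genes were kept by filterByExpr in edgeR 4.0.16 (R 4.3.3), normalised by TMM and tested with glmQLFit and glmQLFTest, with Benjamini-Hochberg adjustment over all 20027 genes tested and a threshold of 0.05. CPM used the same normalised library sizes. The second fit added the replicate letter as a block. The letters come from the labels, which do not say what they mark. Deviations from the group means in log2(CPM + 0.1) correlated by 0.12, 0.29 and 0.23 over genes for the same letter A, B and C, all over the limit of 0.1, so the letters were taken to pair the libraries. Alternatives were RLE and upper quartile factors, other filters, DESeq2 1.42.0, limma-voom 3.58.1, robust edgeR, the block and each library left out. Both fits were also run on simulated counts that held a treatment effect but no effect of the letter. That run therefore cannot show how the block performs where the letters differ.

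Named genes were all 9 members, genes of the wider list past the threshold in either fit and otherwise up to 3 per role with the highest CPM, and the 3 genes most like Lefty1. Some results on a listed gene and some sequences are not reported here. Members, gene lists and tests were chosen with earlier results of these data known. Figures were drawn with matplotlib 3.10.9, and sequences were read from GRCm38 and RefSeq with Python 3.11.15.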

Additional observations from a re-analysis of the deposited data

How the results depend on the processing

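The number of genes past the threshold moved from 41 to 25 with upper quartile factors, 194 with no filter on low counts, 24 with a filter of 1 CPM in 3 libraries, 185 with DESeq2, 18 with limma-voom, 66 with robust edgeR and 1425 with the replicate block. DESeq2 was given all 30677 genes, as was the fit with no filter, so that setting changed the tool and the filter at once. With 1 library left out it was 0 to 520, and where it was 0, without MB-3 A or MB-3 B, 1440 and 1716 genes had an unadjusted p under 0.05 in edgeR. The number of members past it, 0 of 9, moved to 1 with no filter, 2 with DESeq2, 1 with robust edgeR and 2 with the replicate block, and was 0 to 1 with 1 library left out, the 1 being Lefty2 without DMSO B (adjusted p 0.020). The number of wider pathway genes, 1 of 42, moved to 3 of 46 with no filter, 0 of 35 with the filter of 1 CPM, 4 of 46 with DESeq2, 0 of 42 with limma-voom and 11 of 42 with the replicate block. With 1 library left out it was 0 to 8, of 42 or 43 tested. The cause of these shifts was not tested. Under settings chosen after seeing the data, the block with letter A, B or C left out gave 939, 912 and 1037 genes, 10, 10 and 8 wider genes, and 2 members each time, Lefty1 and Lefty2 (adjusted p at most 0.0082). Their counts summed passed with the block as 1 feature. Over the other 14 alternatives Lefty1 lay between -0.45 and -0.20 on the log2 scale and passed in 2, and Lefty2 lay between -0.41 and -0.30 and passed in 5. Among the 9 members, signs turned only for Tdgf1, to -0.0016 without DMSO C, -0.033 without MB-3 B and -0.0064 with the block without letter B, and for Smad3, to 0.020 without DMSO C and 0.026 with the block without letter C. With 1 library left out Tdgf1 lay between -0.033 and 0.053, Smad3 between -0.057 and 0.020, Smad7 between -0.196 and -0.030, Acvr1b between -0.239 and -0.089, and Acvr2b between 0.111 and 0.223. The block changed no call among the other 7 members. Lhx1 passed in 7 of its 13 alternatives, and DESeq2 gave it no adjusted p. Of the 3 DMSO peaks named for a member, 1 had an MB-3 peak, also when the overlap had to cover at least 50% of both peaks. With both lists limited to peaks of at least 500 bp, 2 of those 3 DMSO peaks were left and 0 had an MB-3 peak, since the MB-3 peak named Nodal is 387 bp wide.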
